A study of Mus musculus with 8 samples.

Results

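Acetylcholine is the transmitter of a sparse class of large interneurons in the striatum, and the genes that make it, pack it, recycle its choline, break it down and receive it through muscarinic receptors were examined in the nucleus accumbens (NAc), the part of the ventral striatum engaged in motivation and reward. The 10 genes were taken by function: Chat, Slc18a3, Slc5a7, Ache, Bche, Chrm1, Chrm2, Chrm3, Chrm4 and Chrm5. Every non-control probe that carried one of these names was used, which gave 13 of the 55681 probes of the array. Of these, 12 probes of 9 genes had a signal well above background on 4 or more arrays and were tested, and the single probe of Chrm5 was not.

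The arrays came from 4 control (Ctrl) mice and 4 mice with maternal separation combined with unpredictable stress of the dam (Stress in the labels, MS below), 1 array per mouse. All 8 were adult C3H/HeN males. MS pups were separated from postnatal day 2 to 14, and both groups were weaned on postnatal day 21 and caged with animals of their own condition. By the study's methods, all of them had worked for sweetened milk in an operant task and were fasted before sampling. The controls carried these exposures too, though not necessarily in the same amount. In the study's cohort, MS males of this strain pressed for milk more than controls when more effort was needed. The paper proposes that unequal exposure to such food, or an unlike response to fasting, may contribute to expression differences in the NAc. That was not tested here. The tissue was micropunched, so that each value mixes every cell type of the punch. In the labels' individual numbers, 3 of the 4 control mice shared one leading number and 3 of the 4 MS mice another. The labels do not say what that number stands for, so that a shared litter or cage cannot be told apart from the group, and p-values measure the spread between these mice. The share of probes well above background ran from 57.3% to 69.7% per array, and none was saturated.

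As background, choline acetyltransferase (Chat) makes acetylcholine from choline and acetyl-CoA in the cytoplasm of cholinergic neurons. The vesicular transporter encoded by Slc18a3 loads it into synaptic vesicles in exchange for protons, and the high-affinity transporter encoded by Slc5a7 takes choline back up from the synaptic cleft. Acetylcholinesterase (Ache) ends the signal by hydrolysing the transmitter, and butyrylcholinesterase (Bche) is a related enzyme of broader substrate range. Of the muscarinic receptors, M1, M3 and M5 (Chrm1, Chrm3 and Chrm5) couple to Gq and M2 and M4 (Chrm2 and Chrm4) to Gi/o. In the striatum M1 and M4 are the main receptors of medium spiny neurons, and M2 is best known as an autoreceptor of the cholinergic interneurons.

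Each probe is a 60-base oligonucleotide, and the sequences below show the bases with which a value was read. The probes were not placed in exons or untranslated regions. They are as the array's scanner output lists them, written 5′ to 3′, whole for 4 probes and as the last 30 bases for the others.
Ache, main probe: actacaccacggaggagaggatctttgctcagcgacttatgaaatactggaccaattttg
Ache, second probe, last 30 bases: atataatacgaccgagcccccaggccctgt
Chat, last 30 bases: gctattcaGAAAGAAAGAAAGAAAGAAAGA
Chrm1, main probe, last 30 bases: tgagctatatgtctcatccataaacttttt
Chrm1, second probe, last 30 bases: aaggaacctgaacaaattaaccccacagtc
Chrm2: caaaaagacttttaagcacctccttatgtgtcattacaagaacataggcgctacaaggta
Chrm4: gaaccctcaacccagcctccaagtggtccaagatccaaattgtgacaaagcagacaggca
Chrm5: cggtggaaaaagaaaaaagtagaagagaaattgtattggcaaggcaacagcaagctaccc
The Ache and Chrm1 sequences are shown because their results turn on how far the probe pair of each gene went together, those of Chrm2, Chrm4 and Chrm5 as examples of receptors read by 1 probe, and that of Chat for a repeat it holds. Capitals mark a 22-base run of the 4-base unit GAAA in the Chat probe. The same run occurs in 2 other probes of the array, which is 0.00359% of all.

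All coordinates are those of the array annotation, in build mm9. The main Ache probe lies at chr5:137733122-137733181 on the plus strand and the second at chr5:137735513-137735572 on the same strand, 2391 bases further on. The Chat probe is at chr14:33221421-33221480 and that of Slc18a3 at chr14:33275627-33275686, both on the minus strand and 54.2 kb apart. In the RefSeq table of GRCm38.p6, Slc18a3 lies inside Chat, the arrangement known as the cholinergic gene locus. The Slc5a7 probes are at chr17:54413269-54413328 and chr17:54413708-54413767 on the minus strand, and the Bche probe is at chr3:73439735-73439794 on the minus strand. The Chrm1 probes are at chr19:8758011-8758070 (main) and chr19:8755342-8755401 on the plus strand. The other receptors were read at chr6:36474550-36474609 (Chrm2, plus strand), chr13:9875880-9875939 (Chrm3, minus strand), chr2:91768397-91768456 (Chrm4, plus strand) and chr2:112319331-112319390 (Chrm5, minus strand).

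Levels below are the log2 processed signal relative to the array's 75th percentile, so that 0 is the level of a probe at that percentile, and the size of a level is not compared between probes. Where levels of different genes are subtracted or summed, only the result is compared between groups. Differences are MS minus control with the standard error (SE) of limma's fit, and p-values were adjusted by the Benjamini-Hochberg method over the 33111 probes tested, with a threshold of 0.05. Of the 12 tested probes, 9 had a lower mean in MS and 3 a higher one, with a median difference of -0.13, where all probes had a median of 0.00 and 16356 lower means. None of the 12 passed the threshold in limma, where 0.00302% of all probes did so, and 4 had an unadjusted p under 0.05, where 14.1% of all probes did. These were 3 lower in MS (both Ache probes and Chrm2), where 7.71% of all probes were, and 1 higher (the main Chrm1 probe), where 6.35% were. In 3 of the 12 the groups did not overlap, where 8.67% of all probes did not. Both Ache probes were lower without overlap, as were 4.91% of all probes, and the main Chrm1 probe was higher without overlap, as were 3.76%. The Ache probes read the same gene and are not independent of each other.

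**Figure D1:**
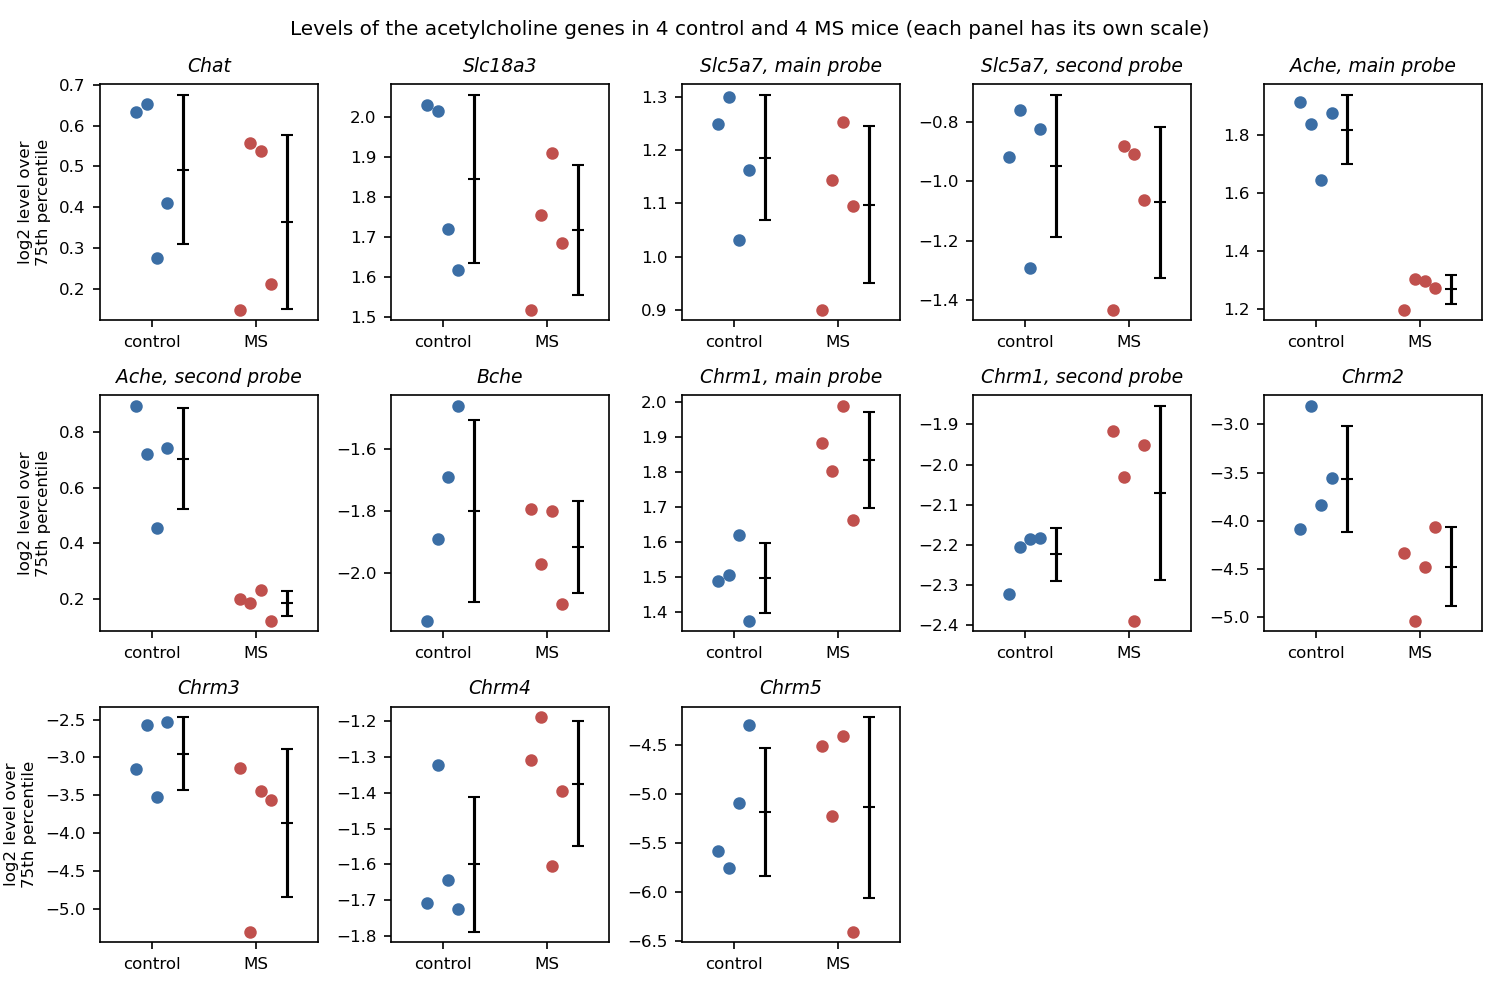
Level of each of the 13 probes in each mouse, with a panel and a vertical scale of its own per probe: log2 processed signal over the 75th percentile of the array, with points for the 4 control and 4 MS mice and a bar for the group mean and SD. The groups are apart for both Ache probes (at the main probe the lowest control mouse is at 1.65 and the highest MS mouse at 1.31) and, in the other direction, for the main Chrm1 probe, and they overlap for the rest.

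The genes that make, pack and recycle acetylcholine showed differences within the spread between mice. Chat stood at 0.63, 0.65, 0.27 and 0.41 in the control mice and at 0.15, 0.56, 0.54 and 0.21 in the MS mice. Both groups thus held mice at either end of the range, and the means of 0.49 ± 0.18 and 0.36 ± 0.21 (SD, n = 4 each) differed by -0.13 (SE 0.13; limma adjusted p = 0.71). The 95% interval of this difference, -0.43 to 0.17, is 0.744 to 1.12 as a ratio of MS to control. For Slc18a3, the vesicular transporter, the control mice stood at 2.03, 2.02, 1.72 and 1.62 and the MS mice at 1.52, 1.76, 1.91 and 1.68. The groups overlapped here as well, and the difference was -0.13 (SE 0.12, 95% interval -0.41 to 0.15; limma adjusted p = 0.693). Slc5a7, the choline transporter, gave 1.25, 1.30, 1.03 and 1.16 in control and 0.90, 1.14, 1.25 and 1.09 in MS mice at its main probe. The lowest value was that of an MS mouse, but the rest were mixed, and the difference was -0.09 (SE 0.10; limma adjusted p = 0.738). Its second probe gave -0.12 (SE 0.16; limma adjusted p = 0.781). Leaving out mice moved these differences both away from 0 and towards it. With 1 mouse left out, Chat ranged from -0.20 to -0.06 (without control replicate 3 and without MS replicate 1), Slc18a3 from -0.20 to -0.06 (without control replicate 4 and without MS replicate 1) and Slc5a7 from -0.14 to -0.02 (without MS replicate 3 and without MS replicate 1). Without both mice of unlike individual number all 3 were near 0, at -0.01, 0.00 and 0.00. With 4 mice a group, changes of these genes within such intervals remain possible. The intervals are not adjusted for the number of probes tested, so that a larger change could also have missed the threshold.

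The transcripts of Chat, Slc18a3 and Slc5a7 varied together from mouse to mouse. Across the 8 arrays, after subtraction of each group's mean, the correlation was 0.84 between Chat and Slc18a3, 0.89 between Chat and Slc5a7 and 0.85 between Slc18a3 and Slc5a7. These are descriptions over 8 arrays, on each of which the genes share the punch and the scaling, and no test was made. Within groups, mice with more of one of these transcripts thus tended to have more of the others. Their differences were unlike between the rows of the slide, which held 2 control and 2 MS arrays each. Chat gave -0.29 in the first row and 0.03 in the second, Slc18a3 -0.39 and 0.13, and Slc5a7 -0.25 and 0.08. All 3 were therefore negative in 1 row only.

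Ache, the enzyme that ends the signal, had the lowest p-value of the 9 genes tested. At the main probe the control mice stood at 1.91, 1.84, 1.65 and 1.88 and the MS mice at 1.20, 1.31, 1.30 and 1.27. Every MS mouse was below every control mouse, and the MS mice lay closer together, with means of 1.82 ± 0.12 and 1.27 ± 0.05 (SD, n = 4 each). The difference of -0.55 (SE 0.08, 95% interval -0.73 to -0.38) corresponds to 0.682 times the control level (0.604 to 0.771), and its adjusted p of 0.0633 (limma, unadjusted 6.96e-05, place 31 among all probes) missed the threshold. The second probe gave 0.89, 0.72, 0.46 and 0.74 in control mice and 0.20, 0.19, 0.23 and 0.12 in MS mice. Its groups did not overlap either, and its difference of -0.52 (SE 0.10; limma adjusted p = 0.0946) was within 1 SE of that of the main probe. Both probes were lower in MS in both rows of the slide (-0.63 and -0.48 at the main probe, -0.61 and -0.42 at the second) and in each of its 4 columns, which held 1 array of each group (-0.62, -0.45, -0.57 and -0.57 at the main probe).

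**Figure D2:**
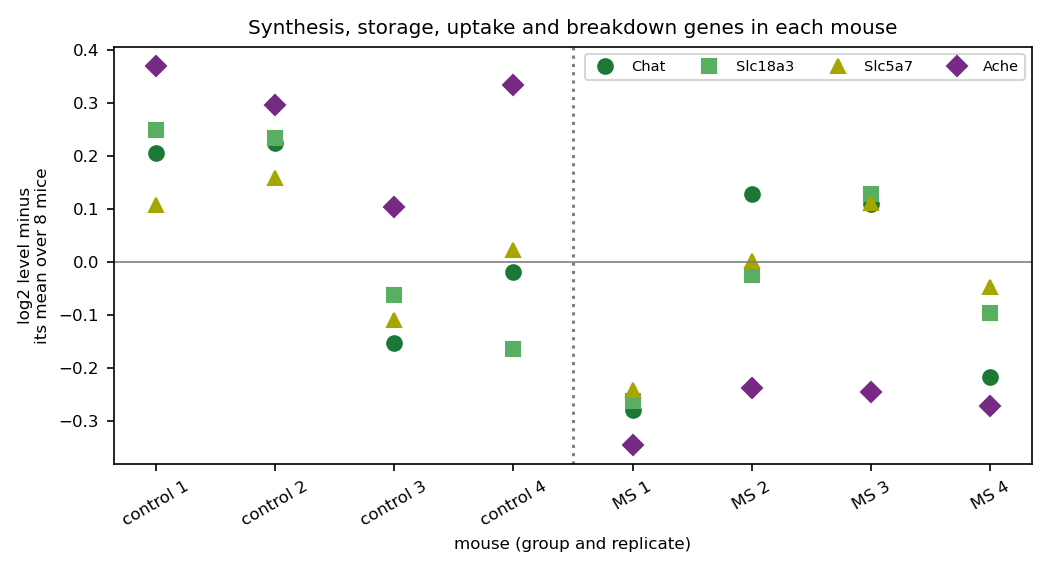
Level of Chat, Slc18a3, Slc5a7 and Ache (main probes) in each of the 8 mice minus the gene's mean over all 8 (log2, vertical axis). Ache is above its mean in all 4 control mice and below it in all 4 MS mice, while the other genes lie on both sides in both groups and close to each other within a mouse.

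Whether Ache passed the threshold depended on the processing. At the main probe the adjusted p ranged from 0.00508 to 0.236 over the alternatives, and the difference ranged from -0.61 to -0.50. It was 0.0227 on the authors' deposited log2 values, where 1.2% of 31261 probes passed, 0.0108 after normexp background correction, where 1.47% passed, and 0.00508 with a variance trend and robust moderation, where 1.52% passed. It was 0.0363 when every array had to be above background, where 0.376% passed, and 0.0396 without control replicate 3, the control mouse with the lowest level. It was 0.106 with scaling to the median, 0.101 with a block for the row of the slide and 0.229 with one for its column. Ache is among the genes the study lists as changed on these same arrays, so that its direction here is no independent evidence.

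**Figure D3:**
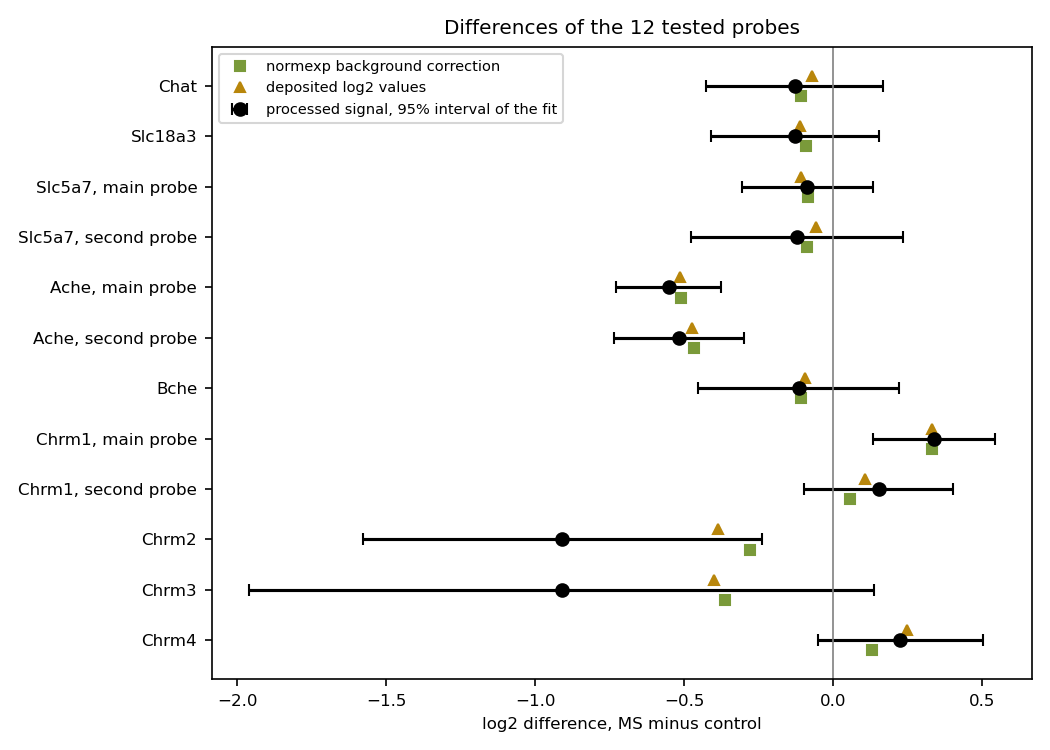
Difference between groups (MS minus control, log2, horizontal axis) of the 12 tested probes: black points and bars give the processed signal with limma's 95% interval, squares the value after normexp correction and triangles that on the deposited values. The intervals of both Ache probes, of the main Chrm1 probe and of Chrm2 exclude 0 before any adjustment for the 33111 probes tested, and for the dim Chrm2 and Chrm3 the other values lie much nearer to 0.

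Ache was also set against each of the synthesis and transport genes within the array. The level of Ache minus that of Chat was 1.28, 1.19, 1.37 and 1.47 in control mice and 1.05, 0.75, 0.76 and 1.06 in MS mice. The groups did not overlap, and the difference of -0.42 gave p = 0.0286 in an exact permutation test (two-sided, 70 arrangements), the smallest p that 4 against 4 mice can give. Ache minus Slc18a3 was -0.12, -0.18, -0.07 and 0.26 in control mice and -0.32, -0.45, -0.61 and -0.41 in MS mice, a difference of -0.42. Ache minus Slc5a7 was 0.66, 0.54, 0.62 and 0.72 in control mice and 0.30, 0.16, 0.04 and 0.18 in MS mice, a difference of -0.46. In each of these 3 comparisons every MS mouse lay below every control mouse, with an exact permutation p of 0.0286, also after adjustment over the 3. The 3 share Ache and are not independent. They were chosen with the Ache levels known, so that low p-values were likely beforehand and are no independent evidence. A ratio within an array can describe unequal change and not which gene changed. Without any one mouse the p was 0.0571, the smallest that 3 against 4 mice can give. Within groups, Ache varied with Chat (correlation 0.70), Slc5a7 (0.74) and Slc18a3 (0.49) over the 8 arrays, and its own probes with each other (0.87). In bulk tissue, fewer cells of a type and less RNA per cell cannot be told apart.

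**Figure D4:**
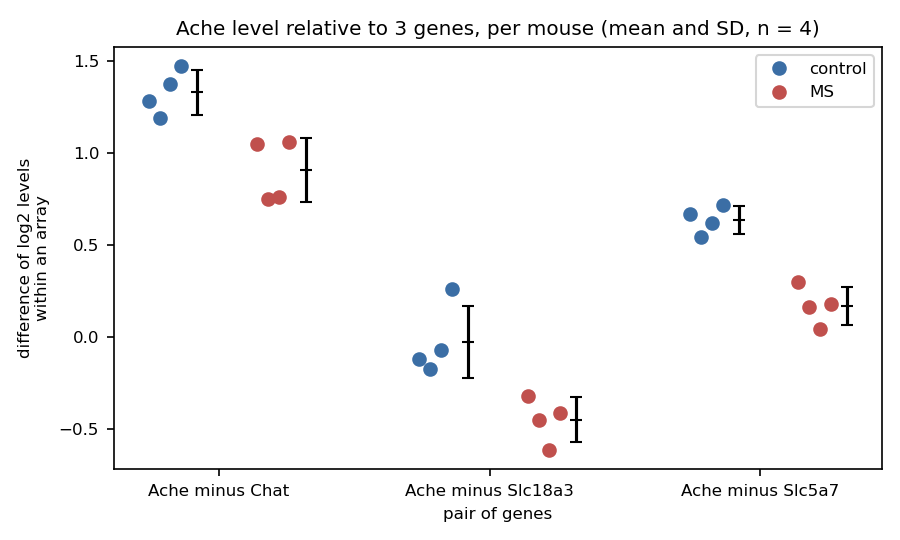
Level of Ache minus the level of Chat, Slc18a3 or Slc5a7 in the same mouse (log2, vertical axis), with the 4 control and 4 MS mice as points and a bar for the group mean and SD. For all 3 pairs the highest MS mouse lies below the lowest control mouse, and the group means differ by -0.42, -0.42 and -0.46.

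Bche, the other cholinesterase, gave -2.15, -1.89, -1.69 and -1.46 in control mice and -1.79, -1.97, -1.80 and -2.10 in MS mice. The MS values lay inside the range of the controls, and the difference was -0.12 (SE 0.15, 95% interval -0.45 to 0.22; limma adjusted p = 0.781). It was 0.14 in the first row of the slide and -0.37 in the second, 0.00 without control replicate 4 and -0.23 without control replicate 1.

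Among the receptors, Chrm1 (M1) had the lowest p-value. Its main probe stood at 1.49, 1.51, 1.62 and 1.37 in control mice and at 1.88, 1.80, 1.99 and 1.66 in MS mice. Every MS mouse was above every control mouse, although MS replicate 4 exceeded the highest control by only a small step. The means of 1.497 ± 0.10 and 1.83 ± 0.14 (SD, n = 4 each) differed by 0.34 (SE 0.09, 95% interval 0.13 to 0.54), or 1.26 times the control level (1.095 to 1.46), with a limma adjusted p of 0.169. The difference was 0.35 in the first and 0.33 in the second row of the slide and was positive in all 4 columns. Its adjusted p was 0.0475 after normexp correction, 0.09 on the deposited values and 0.0585 with a variance trend and robust moderation, and 0.416 at most over the alternatives.

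The second Chrm1 probe gave -2.32, -2.21, -2.19 and -2.18 in control mice and -1.92, -2.03, -2.39 and -1.95 in MS mice. The lowest of the 8 values was that of MS replicate 3, the mouse with the highest value at the main probe, and the difference of 0.15 (SE 0.11; limma adjusted p = 0.585) was smaller than at the main probe. Within groups the Chrm1 probes did not vary together (correlation -0.54 over 8 arrays), unlike those of Ache and Slc5a7 (0.87 and 0.91). The Chrm1 difference thus rests on the main probe, whose groups alone did not overlap.

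Chrm4 (M4), the Gi/o-coupled receptor of medium spiny neurons, stood at -1.71, -1.32, -1.64 and -1.72 in control mice and at -1.31, -1.19, -1.60 and -1.40 in MS mice. The MS mice were mostly higher, but the second control mouse lay among them, and the difference of 0.22 (SE 0.12, 95% interval -0.05 to 0.50) had a limma adjusted p of 0.452. It was positive in both rows of the slide, with 0.27 and 0.18, and in 3 of its 4 columns, the other column giving -0.08.

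Chrm2 (M2) was dim, with processed signals from 12.01 to 45.3, and its size depended on the background correction. The control mice stood at -4.09, -2.81, -3.83 and -3.56 and the MS mice at -4.34, -5.04, -4.48 and -4.06. The groups overlapped by 1 pair, MS replicate 4 being above control replicate 1. The difference was -0.91 (SE 0.29, 95% interval -1.58 to -0.24; limma adjusted p = 0.233), but -0.28 after normexp correction and -0.39 on the deposited values. Without control replicate 2 it was -0.66, and it was negative in all 4 columns of the slide. Chrm3 (M3) was also dim, and on the array of MS replicate 2 it was not well above background. Its values were -3.16, -2.57, -3.53 and -2.54 in control mice and -3.14, -5.304, -3.44 and -3.56 in MS mice. The groups overlapped, and the difference of -0.91 (SE 0.46; limma adjusted p = 0.42) was -0.43 without MS replicate 2. It was -0.36 after normexp correction and -0.40 on the deposited values.

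Chrm5 (M5) was detected above background in 1 of 4 control mice and in 2 of 4 MS mice and was not tested. Its values ran from -5.76 to -4.29 in control mice and from -6.41 to -4.41 in MS mice. On most arrays these are values of a spot that was not above background, and no fold is given.

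Around these genes, 7 lists of the pathway were counted, with the probe of highest mean level for each gene, and no gene in any of them passed the threshold in limma. Over all 21480 genes tested, which include features known only by an array label, 50.3% were lower in MS and the median difference was 0.00. Of these, 1761 lower and 1289 higher ones had an unadjusted p under 0.05. Of 10 genes that specify or mark forebrain cholinergic neurons, 7 were lower and 3 higher, with a median of -0.38, and 4 lower ones had an unadjusted p under 0.05. The lowest of them were Lhx8, a homeobox gene of these neurons and of the pallidum (-0.92, SE 0.15; limma adjusted p = 0.0709), and Gbx2 (-1.17, SE 0.30; 0.155). Slc17a8, the vesicular glutamate transporter that striatal cholinergic interneurons also carry, gave -0.44 (SE 0.16; limma adjusted p = 0.266). Isl1, another homeobox gene of these neurons, gave 0.07.

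Of 12 tested genes of choline supply, choline use and acetyl-CoA, 9 were lower and 3 higher, with a median of -0.13. Among the lower ones, 3 had an unadjusted p under 0.05 in limma. The list mixes genes that supply choline with genes that use it, so that its count gives no direction of supply. The lowest p-value was that of Chdh, choline dehydrogenase, one of the genes of choline use (-0.45; limma adjusted p = 0.148). The 4 genes listed around cholinesterase anchoring split 2 to 2 with a median of 0.00, none of them at an unadjusted p under 0.05 in limma. Among them Prima1, the membrane anchor of brain acetylcholinesterase, gave -0.01 and Colq, a collagen tail of the enzyme, -0.12. The higher ones were Lrp4 (0.03) and Dag1 (0.01). Of 10 vesicle genes, 7 subunits of the proton pump that drives the transporter and 3 SV2 glycoproteins, 6 were lower and 4 higher, with a median of -0.05. The 2 lower ones at an unadjusted p under 0.05 were Atp6v1h, a pump subunit (-0.21), and Sv2a, which is no part of the pump (-0.26).

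Of the 11 tested genes of Gq signalling behind M1, M3 and M5, 9 were higher and 2 lower, with a median of 0.14, or 0.07 without control replicate 4, and 3 higher and 1 lower had an unadjusted p under 0.05. Plcb4, a phospholipase C, was the lower one (-0.63; limma adjusted p = 0.207), and Prkca, a protein kinase C, and Kcnq5, a subunit of the M current that M1 inhibits, were among the higher ones (0.24 and 0.28; limma adjusted p = 0.209 and 0.282). Of 10 genes of Gi/o signalling behind M2 and M4, 6 were lower and 4 higher, with a median of -0.06 and 1 of each at an unadjusted p under 0.05. Kcnj5, a channel opened by Gi/o, gave -0.83 (limma adjusted p = 0.201) and Adcy5, the main striatal adenylyl cyclase, 0.40 (0.34). Of the 6 nicotinic subunits tested, out of 9, 4 were lower and 2 higher, with a median of -0.23, and 3 lower and 1 higher had an unadjusted p under 0.05. The extremes were Chrna6 (-1.04; limma adjusted p = 0.238), Chrna2 (-0.97; 0.0851) and Chrna7 (0.33; 0.176).

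**Figure D5:**
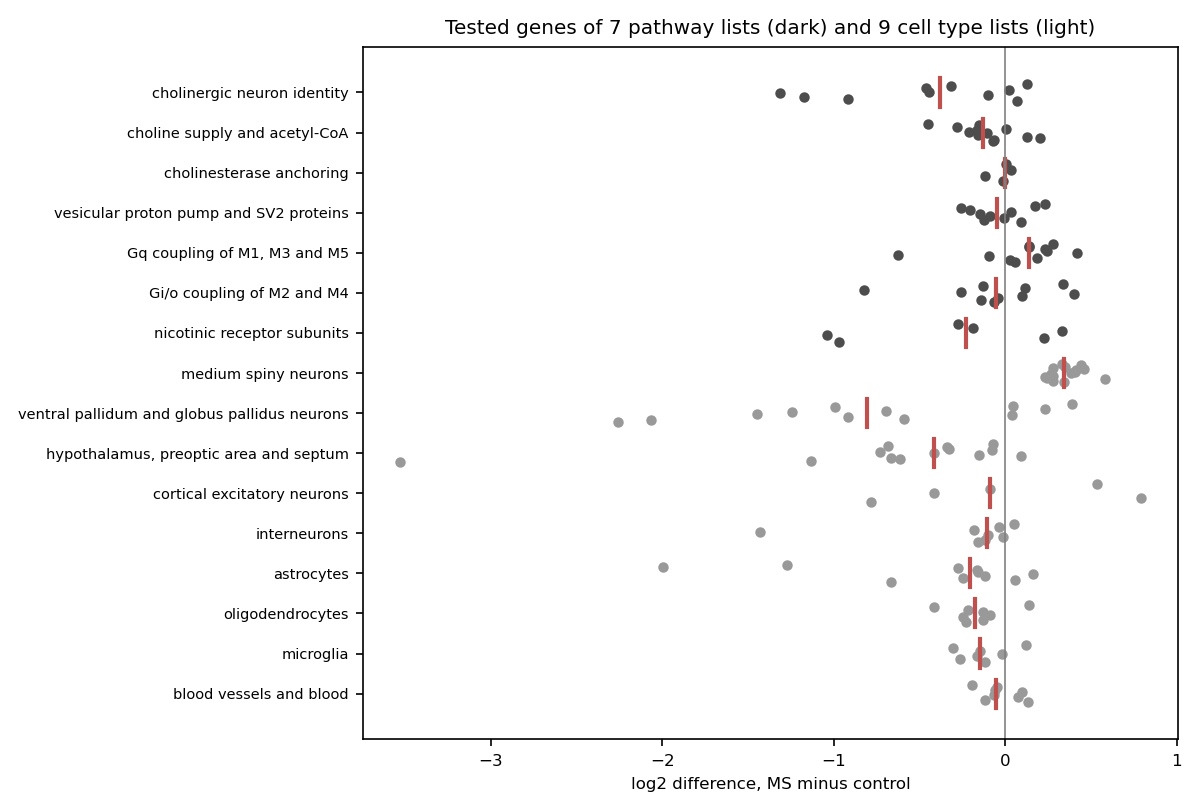
Difference between groups (MS minus control, log2, horizontal axis) of each tested gene of 7 pathway lists (dark points) and 9 cell type lists (light points), with the median of each list as a red bar and points spread vertically for legibility. The median is -0.38 for cholinergic neuron identity and 0.14 for Gq coupling, and 0.35 and -0.81 for medium spiny and pallidal neurons.

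Markers of the cell types that a punch can hold also differed in mean between the groups. All 15 genes of medium spiny neurons, the principal cells of the NAc, were measured, Drd1 and Drd2 among them, and all 15 were higher in MS, with a median of 0.35 and 6 at an unadjusted p under 0.05. Their summed linear level (relative to the 75th percentile) ran from 759.6 to 1172.0 in control and from 1078.0 to 1321.0 in MS mice, and their mean log2 deviation from -0.55 to 0.09 and from -0.03 to 0.27. Control replicate 4 had the lowest deviation, -0.55 against -0.15 or more in the other controls, and the highest share of probes above background, 69.7%. Without it all 15 were still higher, with a median of 0.21. Chrm1 and Chrm4 had the same sign as these markers, with differences of 0.34 and 0.22, or 0.30 and 0.18 without that mouse. Of 12 markers of the ventral pallidum and globus pallidus, 8 were lower, with a median of -0.81, and each of the 8 had an unadjusted p under 0.05. Npas1 gave -2.26 and Pvalb -2.07, and the mean log2 deviation of the list ran from 0.16 to 0.55 in control and from -0.59 to -0.12 in MS mice. Its summed level, 284.7 to 422.5 in control and 387.7 to 433.7 in MS mice, went the other way. The list also holds Penk and Scn4b, which medium spiny neurons express and which were higher in MS. Its other genes that were not lower were Kcnc1 (0.04, SE 0.08) and Etv1 (0.05, SE 0.11).

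Ache had the same sign as the pallidal list, as did 12 of 13 tested markers of hypothalamus, preoptic area and septum (median -0.41, 1 of them, Lhx5, past the threshold, summed level 47.6 to 64.2 in control and 32.0 to 45.7 in MS mice). Basal forebrain cholinergic cells lie among or near these regions, and Lhx8 is on the pallidal list as well as on that of cholinergic identity. Astrocyte markers were lower in 8 of 10 (median -0.20, summed level 316.5 to 359.9 and 279.3 to 302.2). The other lists had medians of -0.11 (interneurons, 7 of 8 lower), -0.17 (oligodendrocytes, 7 of 8), -0.15 (microglia, 6 of 7), -0.05 (blood vessels and blood, 5 of 8) and -0.09 (cortical excitatory neurons, 3 of 5). Without control replicate 4, those of oligodendrocytes, blood vessels and blood, and cortical excitatory neurons were -0.10, -0.15 and -0.06. Slc17a7 and Neurod6, defining markers of cortical excitatory neurons, were not above background on enough arrays to be tested. The part of these cell types in the differences of Ache, Chrm1, Chrm4 and the other members was not tested.

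For Ache, 21471 other genes, array-labelled features included, were ranked by how closely their level followed it over the 8 arrays, after subtraction of each group's mean. The closest were Igh-VJ558, Slc22a15, Bend7, Cartpt and Gm10614, with Pearson correlations of 0.99, 0.98, 0.97, 0.97 and 0.97. The group differences of these genes were 0.19, -0.15, 0.26, 0.26 and 0.57, none past the threshold in limma. The genes closest to Chat were Entpd3, Zfp936, Dcun1d1 and Gm3081, at 0.98, 0.95, 0.95 and 0.95. Next, at 0.95, came a feature named only by its position on chr8. The highest of so many correlations over 8 arrays are a description, with no test.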

How the data were processed

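The authors' scanner files hold intensity values per spot (Cy3, 40 ng of RNA), made with Agilent Feature Extraction 10.10.1.1, per the file headers, with local background subtracted. The authors also deposited log2 values of 31261 probes. How they were normalized and filtered is not given in the sources used here. They served as an alternative. The submitters' processing notes name limma without a version.

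Control spots and outlier-flagged spots (122 to 189 per array) were left out. Spots of a probe were averaged as log2 processed signal minus each array's 75th percentile. The number of arrays limits the precision. Probes above background on 4 or more arrays were fitted with limma 3.58.1 (lmFit, eBayes) in R 4.3.3. The fitting step was tested on simulated data. For a gene with several probes, the probe of highest mean level was the main one. All 10 genes were also found by accession in the RefSeq table. Levels relative to Ache were compared by exact permutation. Per-mouse list scores are mean deviations from each gene's mean. Alternatives covered background, scaling, filter, moderation, slide position, flags, probe choice and left-out mice. Named genes were the members and, per list, those of lowest p-value with defining genes. The members and lists were chosen with earlier results of these data known.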

Additional observations from a re-analysis of the deposited data

Results flagged for a closer look

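Of 24 groups of 4 mice examined over the member probes, 1 held a mouse far from the others: at the second Chrm1 probe, control replicate 1 stood at -2.32 and the nearest control at -2.21, a gap of 0.831 of the group's range, just above Dixon's 95% critical value for 4 samples. Chance sets aside about 1 in 20 such groups. The same mouse was not apart at the main Chrm1 probe, where it stood at 1.49 among controls from 1.37 to 1.62.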

How the results depend on the processing

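None of the main-probe differences of the tested members changed direction in the alternative fits. Those of Chat, Slc18a3, Slc5a7 and Bche, which are within the spread between mice, came close to 0 in some. The directions of the second probes were compared only after normexp correction and on the deposited values, where they held. Within single rows or columns of the slide some differences did reverse, such as those of Chat, Slc18a3 and Slc5a7 in the second row and of Chrm3 in the second column (0.39). Without both mice of unlike individual number, Chat, Slc18a3 and Slc5a7 gave -0.01, 0.00 and 0.00, and Bche ranged from -0.23 to 0.00 with 1 mouse left out. The count of member probes past the threshold was 0 and became 3 after normexp correction (both Ache probes and the main Chrm1 probe), 2 on the deposited values and 2 with a variance trend and robust moderation (both Ache probes each time), and 1 when only probes above background on all 8 arrays were tested (the main Ache probe). Leaving out 1 mouse at a time gave 0 to 1, the 1 being the main Ache probe without control replicate 3. The Ache difference passed the threshold at -0.51 after normexp correction, at -0.52 on the deposited values and at -0.55 with the stricter filter and with the variance trend, and ranged from -0.61 to -0.52 with 1 mouse left out. Chrm1 passed at 0.33 after normexp correction. Ache minus Chat, minus Slc18a3 and minus Slc5a7 ranged from -0.48 to -0.37, from -0.47 to -0.33 and from -0.51 to -0.42 with 1 mouse left out (exact permutation p = 0.0571, the smallest possible). Without both mice of unlike individual number they were -0.49, -0.50 and -0.50 (exact permutation p = 0.1, the smallest possible). The cause of these differences between settings was not tested. Signal over background limits Chrm2, Chrm3 and Chrm5. Mice could not be paired by their labels, because the replicate numbers follow accession order and the labels pair no mice across groups. The fit with a block for the slide column, each holding 1 array of either group, pairs arrays by place and not by replicate number, and none of the member probes passed the threshold in it. The lists without control replicate 4 were an alternative chosen after seeing the data.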
